A study of Sus scrofa with 6 samples.

Results

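The 10 genes described here are NLRP2, NLRP5, NLRP9, NLRP13, NLRP14, OOEP, TLE6, PADI6, ZAR1 and DPPA3, which are maternal-effect genes of the oocyte or members of their families. They were taken by symbol from a transcript table of 29874 genes, and all 10 had rows in it, 22 transcript rows of 81774. Coordinates are those of the RefSeq annotation of Sscrofa11.1. All libraries were of 8-cell embryos of the pig, Sus scrofa: 3 carry the genotype label Control and 3 the label LncT KD, an siRNA knockdown of a transcript named LncT. The treatment label reads siRNA injection for the knockdowns and Control for the controls, while a protocol of siRNA injection into the cytoplasm is given for all 6. What the controls received, how many embryos went into a library and whether libraries came from separate collections are not given in the labels, so a p-value here reflects just the scatter of these libraries, which could be technical.

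As background, the subcortical maternal complex is a protein assembly under the surface of the oocyte and early embryo. In the mouse its core holds NLRP5, OOEP and TLE6, and loss of any of these from the mother stops early cleavage. PADI6 is needed in the mouse for the fibrous lattices of the oocyte cytoplasm on which the complex lies, ZAR1 binds stored maternal mRNA, and DPPA3 guards DNA methylation of the maternal genome. In the mouse the proteins persist after their mRNA has been cleared, so an mRNA level is not a measure of the complex.

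The depth of a library, as coverage divided by FPKM (fragments scaled for transcript length and mapped fragments), was 6.45 to 7.03 for controls and 6.29 to 9.41 for knockdowns. Control 3 stood apart from the other controls, and since LncT was not identified in the table, whether its label is right could not be checked. Across the 10417 tested genes, those whose mean reached 1 FPKM, its Spearman correlation was 0.611 and 0.655 with controls 1 and 2, and 0.900 to 0.941 with the knockdowns. Results that rest on the controls are therefore given with and without it, and both sets of values carry that doubt. Leaving out a control because it resembles the knockdowns favours a difference between the groups, and just controls 1 and 2 remain. The p-values of that fit can therefore be too small. Other cell types were looked for with marker lists, while the genes of embryonic activation, which bear on stage, are given with the other lists at the end. The oocyte genes BMP15 and GDF9, growth factors of the oocyte, were at 327 to 851 and 177 to 542 FPKM over the libraries. The 11 genes of cumulus and granulosa cells summed to 4.14 to 6.86 FPKM in controls and 5.89 to 9.09 in knockdowns. FOXL2 and INHA were listed at 0, but VCAN reached 6.04 FPKM. TNFAIP6, whose mean was under 1 FPKM, was at 0.09 to 0.54 in controls and 1.46 to 1.74 in knockdowns. The 5 blood genes found summed to at most 1.63 FPKM in any library and the 6 sperm genes to at most 0.79.

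The 10 genes spanned several orders of magnitude. DPPA3 was the most abundant, at 285 to 468 FPKM over the 6 libraries, and NLRP9 followed at 120 to 422. PADI6 was at 19.4 to 59.6 FPKM, OOEP at 9.56 to 32.3, NLRP13 at 6.54 to 18.8 and NLRP14 at 1.46 to 5.17. NLRP5, TLE6 and ZAR1 lay close to 1 FPKM, and NLRP2 did not exceed 0.11. Read depth over the transcript stood in a fixed ratio to FPKM within a library, so it adds no separate evidence for these levels. It was 1793 to 4208 reads per base for DPPA3, 6.32 to 14.9 for NLRP5 and 0.29 to 1.06 for NLRP2. Neighbours in this order were not all apart. DPPA3 was above NLRP9 in 5 of 6 libraries, OOEP above NLRP13 in 4 and TLE6 above ZAR1 in 5, while the ranges of NLRP9 and PADI6, of NLRP13 and NLRP14, and of ZAR1 and NLRP2 did not meet.

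**Figure D1:**
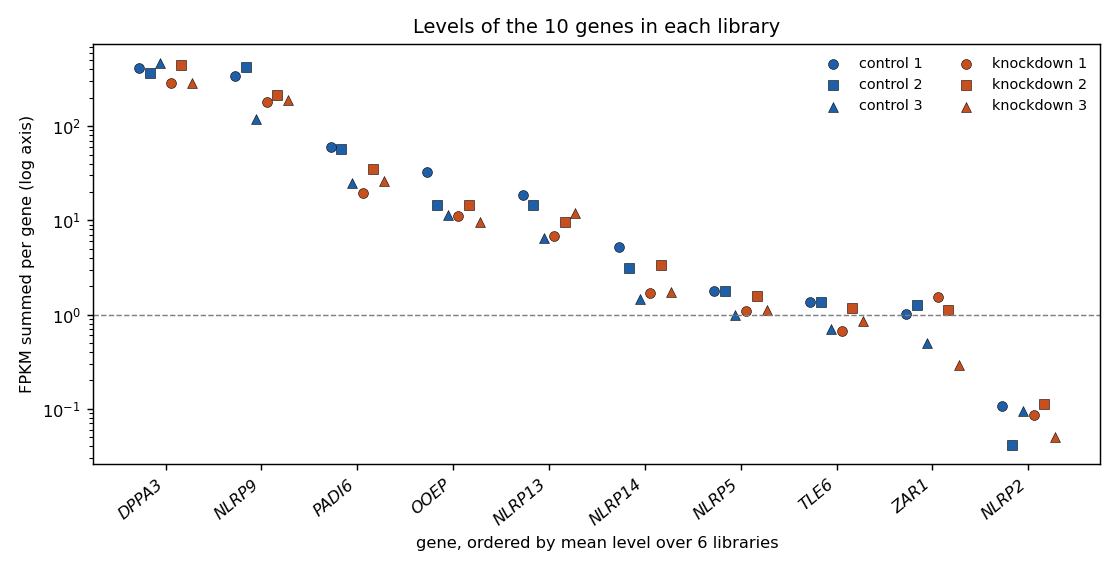
FPKM summed per gene on a log axis for the 10 genes, ordered by mean level; each point is 1 library, with controls in blue, knockdowns in orange, and the replicate number given by the shape. Controls 1 and 2 lie above control 3 for NLRP9, PADI6, OOEP, NLRP13, NLRP14, NLRP5 and TLE6, while control 3 is the highest library for DPPA3; the dashed line marks 1 FPKM.

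Whether these maternal mRNAs differ after LncT knockdown was asked gene by gene. With 6 libraries 0 of the 8 tested members passed an adjusted p of 0.05 in limma, where 0% of 10417 genes passed in either direction. At an unadjusted p under 0.05 there were likewise 0 members, against 61 genes lower in knockdowns (0.586%) and 375 higher (3.6%) of those tested. The knockdown and control values overlapped for all 10 genes, where 2.86% of tested genes had every knockdown below every control and 4.38% the reverse. The log2 changes of the 8 tested members, knockdown minus control on log2(FPKM + 1), were all below 0, from -0.74 to -0.14 with a median of -0.35. Over all tested genes 49.6% were below 0, 50.4% above, and the median was 0.00. In bulk libraries of whole embryos, fewer cells of a type and less RNA per cell cannot be told apart.

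Without control 3, 2 of the 8 tested members passed in the lower direction, where 7.22% of all tested genes did, and 0 passed in the higher direction, where 20.2% did (27.4% in either). These 2 were NLRP9 and PADI6. The median of the 8 was then -0.73, against -0.05 over all tested genes, and 5 of the 8 had every knockdown below controls 1 and 2, where 30.5% of tested genes did and 31.3% did the reverse. At an unadjusted p under 0.05 in limma 3 of the 8 were lower and 0 higher, against 17.1% and 26.1% of tested genes, and by sign alone 8 of 8 were lower, against 51.9% lower and 48.1% higher. Control 3 itself lay below every knockdown for 4 members (31.9% of tested genes), within the knockdown values for 3 (42.7%) and above them for 1 (25.5%).

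**Figure D2:**
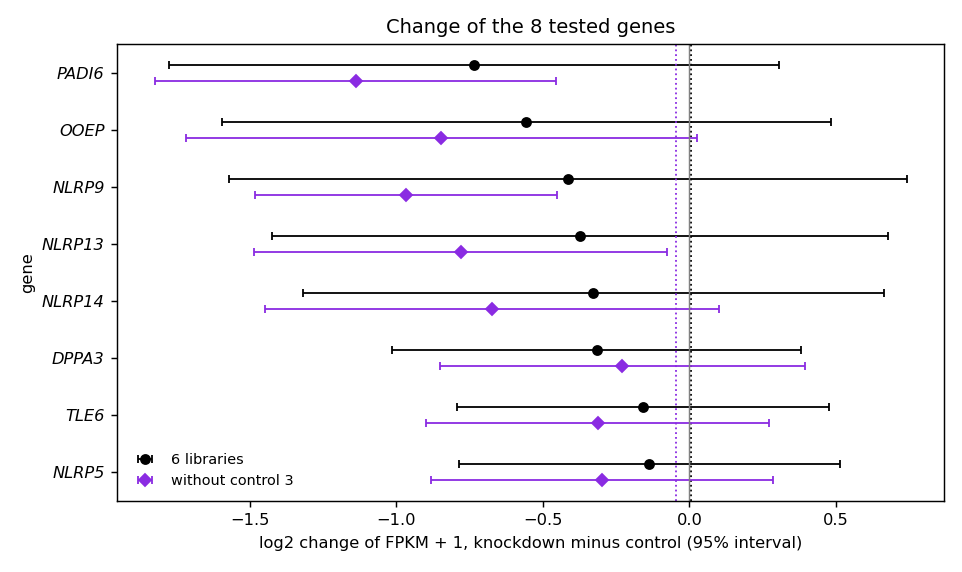
Log2 change of FPKM + 1, knockdown minus control, for the 8 tested genes with 95% intervals from limma, with 6 libraries (black circles) and without control 3 (purple diamonds); dotted lines mark the medians of all tested genes. All 8 values lie below 0 in both fits, and all 8 intervals with 6 libraries include 0, while those of NLRP9, PADI6 and NLRP13 without control 3 do not.

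Among the core proteins of the complex, OOEP, an RNA-binding-fold protein that is the partner of NLRP5 and TLE6 in the mouse, was at 32.3, 14.5 and 11.4 FPKM in control embryos against 11.2, 14.7 and 9.56 after knockdown, each in the order of replicates 1, 2 and 3, as are the values below. Control 1 stood above every other library, and the remaining 5 lay together. The means were 19.4 ± 11.3 and 11.8 ± 2.63 FPKM (SD, n = 3 each), a log2 change of -0.56 ± 0.44 (SE; 95% interval -1.60 to 0.48; limma adjusted p = 0.775). Without control 1 the log2 change was -0.14, and without control 3 it was -0.85 (limma adjusted p = 0.124).

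NLRP5, the protein first known as an oocyte antigen and the scaffold of the complex in the mouse, was at 1.76, 1.78 and 0.98 FPKM in control embryos against 1.09, 1.59 and 1.11 after knockdown. Controls 1 and 2 were the highest libraries and control 3 the lowest, so the groups overlapped. The log2 change was -0.14 ± 0.28 (SE; 95% interval -0.79 to 0.51; limma adjusted p = 0.880), or -0.30 without control 3 (limma adjusted p = 0.385).

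TLE6 (chromosome 2, 75537641 to 75550676), a relative of the Groucho corepressors, was at 1.34, 1.35 and 0.70 FPKM in control embryos against 0.67, 1.18 and 0.85 after knockdown. Its libraries fell in nearly the same order as those of NLRP5, with control 3 and knockdown 1 lowest. The log2 change was -0.16 ± 0.27 (SE; 95% interval -0.79 to 0.48; limma adjusted p = 0.862), or -0.31 without control 3 (limma adjusted p = 0.363). The mean of TLE6 over the libraries, 1.02 FPKM, lay just above the level needed for testing. Of its 9 transcript rows, 7 were listed at 0 in every library, and 1 row held 0.86 FPKM of the gene in control 2 but at most 0.06 in the other libraries, so isoform values of this gene are uncertain.

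KHDC3L, whose mouse counterpart belongs to the same core, lies beside OOEP and was at 0.09 to 0.67 FPKM, under the level needed for testing. DPPA5, a KH-domain gene of the same small cluster (chromosome 1, 52986462 to 53007877, 21416 bases in all), was at 157, 59.2 and 73.0 FPKM in control embryos against 76.3, 72.0 and 62.7 after knockdown. Control 1 was the highest library for DPPA5, as it was for OOEP and for 24.0% of tested genes. Control 2 was the lowest library for DPPA5 but not for OOEP. The ratio of OOEP to DPPA5 within a library ranged from 0.15 to 0.25.

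PADI6, a peptidylarginine deiminase of the oocyte and the member with the largest change, was at 59.6, 57.8 and 24.8 FPKM in control embryos against 19.4, 35.03 and 26.0 after knockdown. Controls 1 and 2 stood above every knockdown, and control 3 lay among the knockdowns. The means were 47.4 ± 19.6 and 26.8 ± 7.83 FPKM (SD, n = 3 each), a log2 change of -0.74 ± 0.44 (SE; 95% interval -1.78 to 0.31; limma adjusted p = 0.775). Without control 3 the log2 change was -1.14 (95% interval -1.82 to -0.45; limma adjusted p = 0.0271), while under the alternatives that kept control 3 the adjusted p was 0.693 or more.

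PADI6 (chromosome 6, 75969855 to 75987097) is the last of 5 PADI genes in a row. PADI4, whose annotated end lies 3580 bases before the start of PADI6, was at 8.77, 10.2 and 5.47 FPKM in control embryos against 4.93, 6.41 and 5.66 after knockdown, and its highest libraries were again controls 1 and 2. PADI1, PADI2 and PADI3, which act in skin and other tissues, did not exceed 0.45 FPKM in any library. PADI6 was 3.94 to 6.79 times the level of PADI4 within a library.

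The NLRP genes of oocytes gave the widest range. NLRP9, an NLRP gene of oocytes and early embryos in cattle, was at 341, 422 and 120 FPKM in control embryos against 180, 214 and 189 after knockdown. The 3 knockdowns lay close together, between control 3 below and controls 1 and 2 above. The means were 295 ± 157 and 194 ± 17.3 FPKM (SD, n = 3 each), a log2 change of -0.41 ± 0.49 (SE; 95% interval -1.57 to 0.74; limma adjusted p = 0.810). Without control 3 it was -0.97 (95% interval -1.48 to -0.45; limma adjusted p = 0.0175), and without control 2 it was -0.06. Under the alternatives that kept control 3 the adjusted p was 0.737 or more.

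The level of NLRP9 came almost wholly from 1 of its 3 transcript rows. That row held 338, 422 and 120 FPKM in control embryos against 180, 211 and 187 after knockdown. Another row was at 2.94 FPKM in control 1 and at 2.94 and 2.299 in knockdowns 2 and 3, and at 0 in the rest, and the last was at 0 throughout. In the fit of single transcript rows 0 of 8 member rows passed, and 0 at an unadjusted p under 0.05 in limma, where 0.0416% of 12013 rows passed lower and 0.0749% higher. For the main NLRP9 row the log2 change was -0.42 (limma adjusted p = 0.812), or -0.97 without control 3 (limma adjusted p = 0.0327), where 2.13% of rows passed lower and 11.3% higher. The single row of PADI6 did not pass in that fit, at -1.14 without control 3 (limma adjusted p = 0.0704).

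NLRP13 was at 18.8, 14.6 and 6.54 FPKM in control embryos against 6.79, 9.63 and 11.9 after knockdown. Controls 1 and 2 stood above every knockdown, and control 3 was the lowest library. The log2 change was -0.37 ± 0.45 (SE; 95% interval -1.42 to 0.68; limma adjusted p = 0.810). Without control 3 it was -0.78 (limma adjusted p = 0.0897), and without control 1 it was -0.085.

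NLRP14, which in the mouse is needed for cleavage and binds the methylation cofactor UHRF1, lies apart from the others on chromosome 9 (2542538 to 2550430). It was at 5.17, 3.15 and 1.46 FPKM in control embryos against 1.70, 3.34 and 1.73 after knockdown. Knockdown 2 was above control 2, so that the groups overlapped even with control 3 set aside. The log2 change was -0.33 ± 0.42 (SE; 95% interval -1.32 to 0.66; limma adjusted p = 0.820), or -0.67 without control 3 (limma adjusted p = 0.160) and -0.012 without control 1. UHRF1 was at 12.2, 8.40 and 1.88 FPKM in control embryos against 2.51, 4.66 and 1.83 after knockdown, and the log2 change was -0.89 (limma adjusted p = 0.775), or -1.54 without control 3 (limma adjusted p = 0.0192).

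NLRP2 (chromosome 6, 59191459 to 59212026), a member of the complex in the mouse, was at 0.11, 0.04 and 0.09 FPKM in control embryos against 0.08, 0.11 and 0.05 after knockdown. All 6 values lie far under the level needed for testing, and the mean read depth over its transcript was at most 1.06 in any library, so no difference was detectable at this depth. With no filter on low values its log2 change was 0.00 (95% interval -0.10 to 0.11; limma adjusted p = 0.988). Adding 1 to the FPKM flattens values this low, so the narrow interval does not show that the level was unchanged.

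NLRP9, NLRP13 and NLRP5 lie in a stretch of chromosome 6 (59941318 to 60418908, 477591 bases) that holds 12 annotated genes, of which 6 are NLRP genes in the order NLRP9, NLRP11, NLRP4, NLRP13, NLRP8 and NLRP5. Their levels were lower at every step along this order in 6 of 6 libraries. The mean over the libraries was 244 FPKM for NLRP9, 147 for NLRP11, 39.4 for NLRP4, 11.4 for NLRP13, 3.84 for NLRP8 and 1.38 for NLRP5. NLRP9 was 122 to 238 times the level of NLRP5 within a library. FPKM is scaled for transcript length, but reads of near-identical stretches could be shared among NLRP relatives by the authors' counting, which leaves these levels uncertain. Of the 6 other annotated genes of the stretch, 2 had a mean of at least 1 FPKM, and neither exceeded 4.95 FPKM in a library. NLRP2 ends 729292 bases before NLRP9 begins, and NLRP7, close to NLRP2, was at 1.81 to 7.41 FPKM. This ordering was noticed after the values were seen and was given no test.

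**Figure D3:**
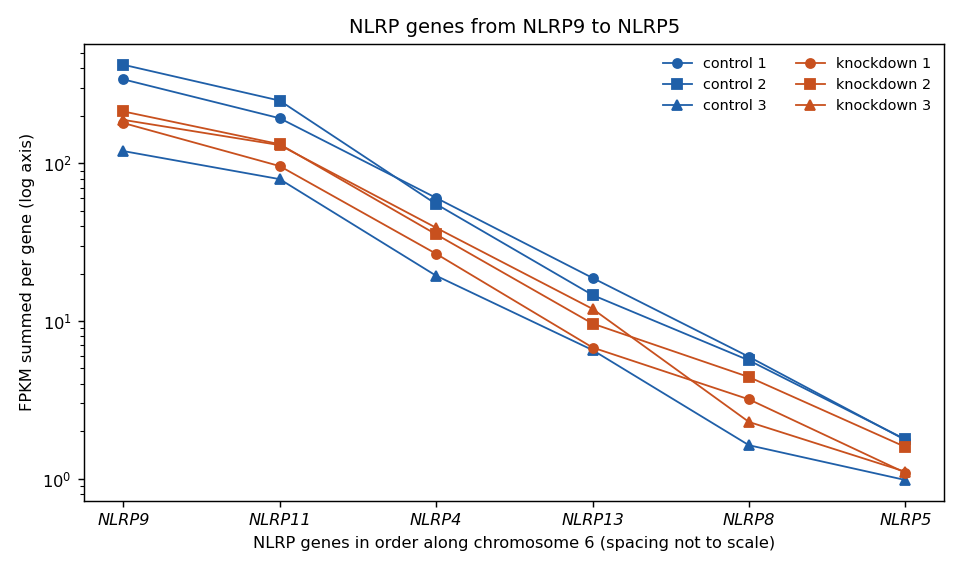
FPKM summed per gene on a log axis for the 6 NLRP genes of the chromosome 6 stretch, in their order along the chromosome, with 1 line per library (controls blue, knockdowns orange). In every library the level falls at each step from NLRP9 to NLRP5, and control 3 lies lowest for each of the 6 genes.

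NLRP11, which a separate list of NLRP relatives holds, followed NLRP9 closely. It was at 193, 250 and 79.4 FPKM in control embryos against 96.1, 132 and 131 after knockdown. The ratio of NLRP9 to NLRP11 within a library ranged from 1.45 to 1.88, or 1.30-fold. NLRP9 itself differed 3.53-fold between its highest and lowest libraries. For members of the stretch the ratio to NLRP9 differed 1.83-fold (NLRP13) and 1.95-fold (NLRP5). Outside the stretch it differed 1.84-fold for TLE6, 1.92-fold for PADI6, 2.09-fold for NLRP14, 2.78-fold for OOEP and 4.49-fold for DPPA3. NLRP4, which silences innate immune signalling in other cells, was at 60.4, 55.2 and 19.4 FPKM in control embryos against 26.7, 35.5 and 39.0 after knockdown. NLRP3, a sensor of the inflammasome in immune cells, ran otherwise, at 8.47, 9.11 and 9.32 FPKM in control embryos against 5.51, 1.97 and 7.01 after knockdown. Every knockdown was below every control for NLRP3, as for 2.86% of tested genes, its log2 change being -0.89 (limma adjusted p = 0.775). Of the 9 relatives listed, 8 were in the table and 5 were tested. With 6 libraries 0 of the 5 passed, and the median log2 change was -0.27. Without control 3, NLRP11 alone passed (log2 change -0.89, limma adjusted p = 0.0388) and the median was -0.78. In that fit 7.22% of all tested genes passed lower.

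DPPA3 (chromosome 5, 62861492 to 62868131), a small nuclear and cytoplasmic protein that keeps UHRF1 and DNMT1 from methylating the oocyte genome in the mouse, had another order of libraries than the other members. It was at 413, 368 and 468 FPKM in control embryos against 287, 447 and 285 after knockdown. Control 3 was the highest library of all 6, and knockdown 2 lay above controls 1 and 2. The means were 416 ± 50.1 and 340 ± 92.9 FPKM (SD, n = 3 each), a log2 change of -0.32 ± 0.30 (SE; 95% interval -1.02 to 0.38; limma adjusted p = 0.788). Without control 3 it was -0.23 (limma adjusted p = 0.528). Within a library DPPA3 was 1.21, 0.87 and 3.91 times NLRP9 in control embryos, against 1.59, 2.09 and 1.51 times after knockdown. Its highest library was 1.64 times its lowest, the narrowest range of the 10 genes.

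Among the genes tied to DPPA3 and methylation, all 8 were tested, 0 passed with 6 libraries, and the median log2 change was -0.29, or 0.02 without control 1 and 0.22 among genes whose mean reached 5 FPKM. DNMT1, the maintenance methyltransferase, was at 864 to 2258 FPKM, its log2 change being -0.48 (limma adjusted p = 0.786). DPPA2, a chromatin factor of pluripotent cells, was at 1.93, 5.57 and 139 FPKM in control embryos against 103, 53.4 and 95.4 after knockdown, with controls 1 and 2 low and the other libraries high. Without control 3, UHRF1 passed lower, IPO5, DPPA2 and DPPA4 passed higher, and the median was -0.52. Of all tested genes 7.22% passed lower and 20.2% higher in that fit. DPPA2 was higher by 4.22 on the log2 scale (limma adjusted p = 0.000709).

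ZAR1 (chromosome 8, 38386520 to 38391618), whose loss in the mouse stops development after fertilisation, was at 1.002, 1.25 and 0.49 FPKM in control embryos against 1.54, 1.12 and 0.29 after knockdown. The highest and the lowest of the 6 values were both from knockdowns. Its mean of 0.95 FPKM lay just under the level needed for testing. With no filter its log2 change was 0.02 (95% interval -0.84 to 0.87; limma adjusted p = 0.989). Its relative ZAR1L, named here after its values were seen, was far more abundant, at 210, 166 and 18.9 FPKM in control embryos against 29.3, 119 and 58.8 after knockdown. ZAR1L was thus 19.0 to 210 times the level of ZAR1 within a library, and its log2 change was -0.56 (limma adjusted p = 0.862), or -1.64 without control 3 (limma adjusted p = 0.0525).

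Of the 12 genes listed around ZAR1 and stored mRNA, 11 were tested and 0 passed with 6 libraries, with a median log2 change of -0.31. BTG4, an adaptor for deadenylation of maternal mRNA, was at 2392, 2147 and 832 FPKM in control embryos against 1381, 1284 and 1042 after knockdown. MOS, the kinase that holds the egg in meiosis, was at 241, 250 and 40.7 FPKM in control embryos against 72.8, 102 and 63.7 after knockdown. For both, control 3 was the lowest library, as it was for NLRP9. EIF4E, the cap-binding protein, was at 61.6, 61.7 and 148 FPKM in control embryos against 119, 111 and 133 after knockdown. Without control 3, BTG4, MOS and CPEB1 passed lower and EIF4E higher, where 7.22% of all tested genes passed lower and 20.2% higher. The median was then -0.86, against 0.06 without control 1.

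On the log2(FPKM + 1) scale centred on each gene, control 1 lay above the mean for 8 of 8 members, where 52.6% of tested genes did, and control 2 for 7 (51.0%). Control 3 lay above the mean for 1 member (46.2%), knockdown 1 for 0 (41.4%), knockdown 2 for 6 (65.2%) and knockdown 3 for 1 (56.6%). Knockdown 2, the library of greatest depth, was the highest of the knockdowns for 7 of 8 members, against 44.9% of tested genes. The part of depth in these values was not tested. NLRP5 and TLE6 were the pair of members closest in profile, with a root mean square difference of 0.04 on the log2 scale, and NLRP9 and DPPA3 the farthest apart, at 0.67. Adding 1 to the FPKM flattens the profiles of weakly expressed genes, NLRP5 and TLE6 among them.

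**Figure D4:**
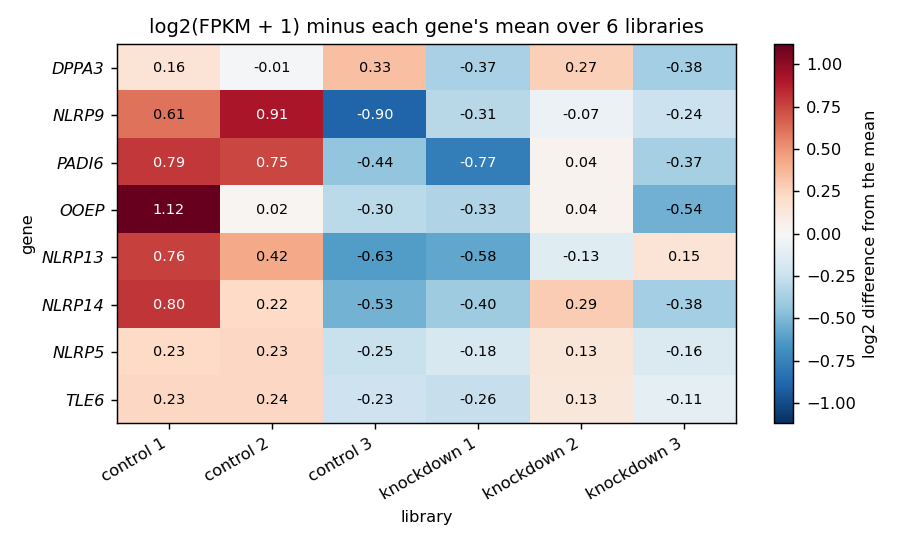
Log2(FPKM + 1) minus the mean of each gene over the 6 libraries, for the 8 tested genes (rows) in each library (columns), with red above and blue below the mean. Control 1 is above the mean in all 8 rows, knockdown 1 is below it in all 8, and DPPA3 is the row in which control 3 lies above the mean.

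The tested genes nearest in profile to each member were taken by the root mean square difference of centred log2 values over the 6 libraries. For NLRP9 they were RRAGA, a GTPase of nutrient sensing, at 0.04, and DBX2, a homeobox gene, at 0.05. NLRP13 was nearest to HSPBAP1 and PLAGL1 (0.06 and 0.07), NLRP14 to TMEM216 and AURKA (0.09 each), and OOEP to NSMCE4A and LATS2 (0.11 and 0.13). PADI6 was nearest to SPATA7 and SYTL5 (0.06 and 0.09), NLRP5 to ABCA1 and TLE6 (0.03 and 0.04), TLE6 to UNC13C and NIN (0.03 and 0.04), and DPPA3 to ALOXE3 and NUDT21 (0.09 and 0.10). The median difference from a tested gene with a symbol was 0.41 to 0.63 across the members.

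At an unadjusted p under 0.05 with 6 libraries, limma gave 0 genes in each of the lists described here except that of embryonic activation, with 3 higher. Of 14 further proteins found with the complex or the lattices, 11 were tested and 0 passed with 6 libraries, with 5 below 0, 6 above and a median of 0.12. Without control 3, UHRF1 passed lower and YWHAE higher, and the median was 0.10. Calls of that fit, here and for the lists below, stand beside 7.22% lower and 20.2% higher of all tested genes. YWHAE, a phosphoprotein-binding adaptor and the most abundant of that list, was at 572, 533 and 2216 FPKM in control embryos against 1275, 1508 and 1462 after knockdown, the reverse of NLRP9. YWHAB was at 65.4 to 120 FPKM and SKP1, a ubiquitin ligase subunit, at 48.7 to 92.4, with log2 changes of -0.30 and 0.12 (limma adjusted p = 0.801 and 0.918). The list of other maternal-effect genes also holds PADI1 to PADI4 as relatives of PADI6, and of these PADI4 was tested. That list had 10 of 13 tested below 0 and a median of -0.33, with 0 passing. Without control 3, WEE2 and BNC1 passed lower and the median was -0.48. WEE2, the oocyte kinase that restrains CDK1, was at 622, 813 and 124 FPKM in control embryos against 141, 274 and 243 after knockdown, while the ubiquitin-conjugating enzyme UBE2A and the autophagy gene ATG5 had log2 changes of 0.11 and 0.02.

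Genes of oocyte identity had 7 of 9 tested below 0 and a median of -0.29, with 0 passing, against -0.35 for the members, and without control 3, GDF9 and DAZL passed lower and the median was -0.63. ZP4, a protein of the egg coat, was at 116 to 255 FPKM, its log2 change being 0.37 (limma adjusted p = 0.788). Of the cumulus and granulosa genes VCAN, GREM1 and STAR were tested, and none exceeded 6.04 FPKM in a library. Genes of embryonic activation had 9 of 9 above 0 and a median of 2.27, with 0 passing with 6 libraries. Without control 3, 7 passed higher, where 20.2% of all tested genes did. Leaving out control 3 gave a median of 3.36, and leaving out control 1 gave 0.97. Their summed level was 267, 436 and 711 FPKM in control embryos against 910, 795 and 690 after knockdown, so control 3 lay with the knockdowns. ARGFX, an embryonic homeobox gene, had 0 FPKM listed for control 1, then 0.09 and 115 FPKM for controls 2 and 3, against 100.3, 71.6 and 91.6 after knockdown. LEUTX was at 1.23, 87.3 and 78.8 FPKM in control embryos against 248, 159 and 111 after knockdown, and DUXA at 252 to 358. Controls 1 and 2 had the lowest sums and were the highest libraries for NLRP9 and PADI6, but not every gene of the list followed the sum, since DUXA and LEUTX were higher in control 2 than in control 3. The part of embryonic stage in the members' values was not tested. Mitochondrial transcripts made up 21.7%, 29.1% and 40.8% of TPM (a length-scaled share of all transcripts) in control embryos against 44.0%, 27.5% and 34.1% after knockdown (exact permutation p = 0.6, two-sided, adjusted p = 0.9 over 3 library measures; the smallest p for 3 against 3 is 0.1), and their part was not tested beyond the rescaling given with the alternatives.

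**Figure D5:**
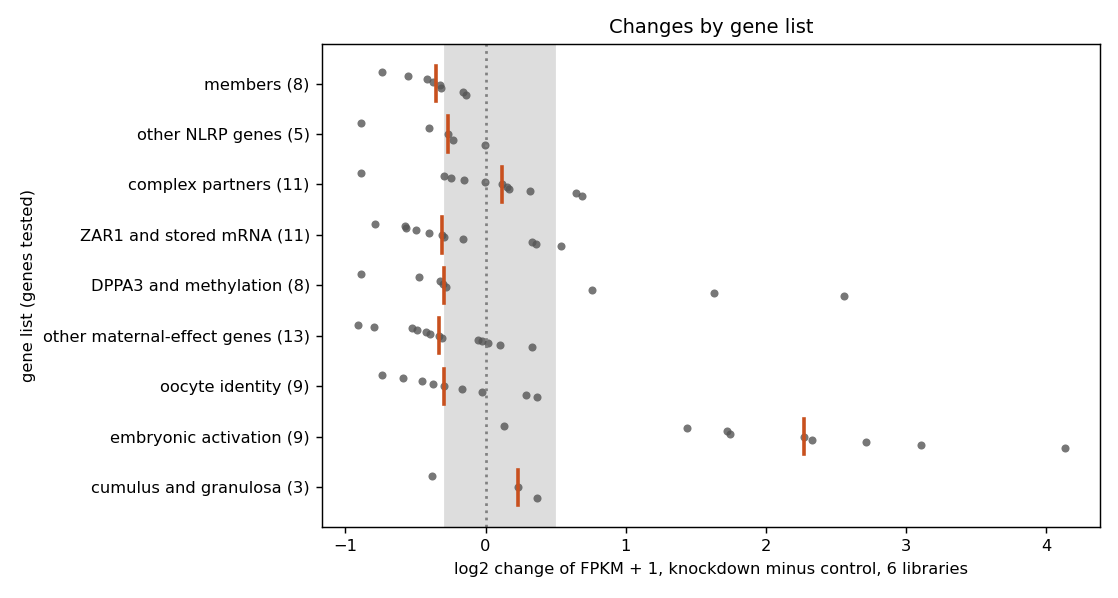
Log2 change of FPKM + 1, knockdown minus control with 6 libraries, for each tested gene (grey points) of each list, with the list's median as an orange bar; the grey band spans the lower to the upper quartile of all 10417 tested genes and the dotted line is their median. The medians of the members, the other NLRP genes, the stored mRNA genes and the oocyte genes lie between -0.35 and -0.27, and that of the embryonic activation genes at 2.27.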

How the data were processed

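Tools listed in the submitters' processing notes are StringTie 2.1.7, Bowtie2 2.3.5 and cutadapt, and the build is Sscrofa11.1. No role or order is listed, and neither strand nor multiply mapped reads are described in the sources used here. A SMARTer mRNA kit was used, per the labels' protocols. The deposited values are named FPKM, TPM and coverage in the file headers, which do not define them. By its usual definition FPKM is scaled for transcript length and mapped fragments. Likewise TPM sums to the same total in every library, and coverage is a signal of mean read depth per transcript. Read counts were not used here, so counting intervals are not given. Columns prefixed C and SL were matched to titles with control and siL, by name alone; 9 value columns with another prefix matched no title and were not used. LncT was not identified in the table, so its level was not checked.

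FPKM was summed per gene. In 1758 rows a coverage value stood as the name, and these took their identifier; 129 date-like names were restored through accessions. Of 29874 genes, 29850 matched the RefSeq gene table. The test was two-sided and covered genes whose mean reached 1 FPKM: limma 3.58.1 (R 4.3.3) fitted log2(FPKM + 1) by group alone, with its trend option and Benjamini-Hochberg adjustment at 0.05 over all tested genes. An FPKM of 0 may be a failed estimate. Python 3.11.15 with pandas 2.3.3, numpy 2.4.6, scipy 1.17.1 and matplotlib 3.10.9 was used.

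The members and lists were chosen with earlier results of these data known. Named genes are all members, the 3 most abundant genes of each list (sperm and blood genes, none tested, are given as sums), any list gene past the threshold with 6 libraries (there was none), and the 2 genes nearest in profile to each tested member. KHDC3L, PADI1 to PADI4, UHRF1, NLRP7, NLRP8, ZAR1L, FOXL2, INHA, TNFAIP6, NOBOX, DDX4 and FIGLA were added for position, relation or as markers after their values were seen. List genes that passed without control 3 were likewise added, for their call. Alternatives were quantile and median-of-ratios scaling, TPM, pseudocounts of 0.1 and 5, testing unfiltered genes or those whose mean reached 5 FPKM, no trend, a replicate block, leaving out each library and, added after seeing the data, leaving mitochondrial genes out of the scaling. No sequences are printed, as none were used here.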

Additional observations from a re-analysis of the deposited data

How the results depend on the processing

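The 125 values of the 8 tested members under the alternatives were all below 0. They are refits of the same 6 libraries, so their number is not separate evidence for a lower level. The fits with no trend and with the replicate block returned the same log2 changes as the main fit. Leaving out 1 library gave 0 to 2854 genes called and 0 to 2 members called, and log2 changes of -0.97 to -0.062 for NLRP9, -1.14 to -0.52 for PADI6, -0.85 to -0.14 for OOEP, -0.78 to -0.085 for NLRP13, -0.67 to -0.012 for NLRP14, -0.53 to -0.21 for DPPA3, -0.31 to -0.071 for TLE6 and -0.30 to -0.055 for NLRP5; the members' median was -0.73 to -0.11. The largest counts, and the adjusted p values under 0.05 of NLRP9 and PADI6, came without control 3, where the main NLRP9 transcript row passed too and the PADI6 row did not (limma adjusted p = 0.0704). Quantile normalization moved the median of all genes to -0.17 and TPM to -0.10, against 0.00; the members' medians were then -0.50 and -0.49. With mitochondrial genes left out of the scaling it was -0.28, against 0.09 for all genes.

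The median of other maternal-effect genes was -0.55 under quantile normalization, -0.50 with TPM, -0.48 and -0.15 with pseudocounts of 0.1 and 5, -0.11 with no filter and -0.028 at a mean of at least 5 FPKM, and that of cumulus and granulosa genes was -0.064 under quantile normalization. With 1 library left out, medians ranged from -0.78 to 0.011 for other NLRP genes, -0.086 to 0.24 for complex partners, -0.86 to 0.059 for stored mRNA genes, -0.48 to -0.18 for other maternal-effect genes, -0.63 to -0.077 for oocyte genes, -0.52 to 0.020 for genes tied to DPPA3 and methylation (0.22 at a mean of at least 5 FPKM), 0.97 to 3.36 for embryonic activation genes and -0.21 to 0.37 for cumulus and granulosa genes. The cause was not tested. The 14 transcript rows called with 6 libraries, none of a member, became 7 at a mean of at least 5 FPKM, 0 with the replicate block and 0 to 1614 with 1 library left out. The difference in depth between groups was 0.73, or -0.25 to 1.31 with 1 library left out.

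Whether the replicate numbers pair the samples could not be decided from the values. Deviations from the group means correlated at 0.08, 0.06 and 0.23 for numbers 1, 2 and 3, and not every library correlated best with its own number. Deviations within so small a group sum to 0 and depend on each other, so they cannot exclude pairing. With the replicate block 0 members and 0 genes were called, as without it.

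Depth limits NLRP2, ZAR1, TLE6 and NLRP5, whose levels lie near or under 1 FPKM. How reads shared among NLRP relatives were assigned was not examined.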

Other observations

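Genes beside the members, picked after their values were seen, add to the picture. LOC100519606, a protein-coding gene of chromosome 6 (59860176 to 59874532), lies some way before NLRP9, which starts at 59941318. It was at 11792, 6933 and 5408 FPKM in control embryos against 6666, 6651 and 6718 after knockdown, and ranked between place 4 and place 13 of all genes in every library. The annotated long non-coding RNA LOC110261066 (59806491 to 59846112) was at 49.4, 51.7 and 6.08 FPKM in control embryos against 24.8, 20.4 and 9.56 after knockdown, its log2 change being -0.56 (limma adjusted p = 0.841), or -1.52 without control 3 (limma adjusted p = 0.0275). TLE2, a Groucho corepressor that ends just before TLE6 begins, was at 22.5, 25.4 and 6.66 FPKM in control embryos against 11.3, 16.6 and 9.32 after knockdown, above TLE6 in every library. LOC100511133, whose annotated end lies 3387 bases before DPPA3, was at 622, 142 and 374 FPKM in control embryos against 371, 455 and 136 after knockdown.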
